A study of Drosophila melanogaster with 6 samples.

Results

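The 36 genes described here are the working parts of light detection in the fly eye, and they were chosen by name, as known members of the phototransduction cascade and the rhodopsin cycle, out of the 17545 genes in each count table. They comprised 6 rhodopsins, 4 genes of the Gq protein and its phospholipase, 4 genes of the channels and the calcium exchanger, 6 genes of the signalling scaffold and its calcium sensing, 3 genes of arrestins and receptor kinase, 5 genes of lipid turnover, 6 genes of rhodopsin folding and chromophore supply, and 2 genes of photoreceptor structure and transcription. All 36 were found in the tables by their locus tags.

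The libraries came from heads of 5-day-old female Drosophila melanogaster, with 15 heads pooled in each library and 3 libraries in each group. HSD-F1 flies were the daughters of mothers kept on food with 20% sucrose, the high-sugar diet (HSD), between egg and adulthood, and were themselves raised on normal diet. The labels give the diet of the mothers, and the text of the study describes matings among flies raised on HSD, so the diets of mother and father cannot be told apart. ND flies were the daughters of mothers kept on normal diet (ND), which holds 10% sucrose. The labels give the genotype of both groups as W+VDRC, whereas the text of the study names Canton-S as its wild type. The question was whether the diet of the parents altered the expression of these genes in the heads of daughters that had not eaten it.

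In the fly photoreceptor, light isomerizes the retinal-based chromophore of a rhodopsin, and the active form, metarhodopsin, turns on a Gq protein that stimulates a phospholipase C. The cleavage of its membrane lipid opens TRP and TRPL channels, calcium enters, and the response is ended by arrestin binding, by protein kinase C and calmodulin, and by lipid enzymes that restore the substrate. Rhodopsin, the phospholipase and the channels act in the rhabdomere, a stack of microvilli along each photoreceptor. The chromophore is made from dietary carotenoids that cells outside the retina take up and cleave.

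The libraries held between 20266352 and 26190694 counts. HSD-F1 replicate 1 was the shallowest, and the other 5 held at least 25256945. The markers of the head were present, with the yolk protein genes of female fat body (Yp1, Yp2 and Yp3) between 11463 and 14143 CPM (counts scaled by library size) per kilobase of exon length, and the synaptic gene nSyb at 264 CPM per kilobase. Eggshell and oocyte genes summed to between 13.9 and 32.1 CPM in HSD-F1 heads and to 12.6, 11.9 and 122 CPM in ND heads, so that ND replicate 3 stood apart from the other libraries in these genes. Of 12048 genes with enough counts to test, 8 (0.0664%) passed an adjusted p of 0.05 in edgeR, an analysis of counts that compares the groups with the spread between libraries.

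No phototransduction or rhodopsin cycle gene passed this threshold, and no member differed by 1.5-fold in either direction, whatever its p, where 9.26% of all genes tested did. The members were more abundant than most genes, with a mean of at least 10 CPM in 33 members, against 6929 of 12048 genes tested. The 1.5-fold share among genes of like level was not counted, so this contrast is not a trait of the members. Of the 35 members tested, 3 had an unadjusted p under 0.05 in edgeR, against 5.07% of all genes tested. Cam, which encodes the calcium sensor calmodulin, was 22.7% higher in HSD-F1 heads, and the carotenoid receptor genes santa-maria and ninaD were 16.7% and 27.0% lower, each with an adjusted p of 0.911. With the added requirement of a 1.5-fold difference, the count was 0 of 35 members, against 1.81% of all genes. Under DESeq2 4 members had an unadjusted p under 0.05 and under limma-voom 3, and neither tool gave an adjusted p under 0.05 for any member. The share of all genes with an unadjusted p under 0.05 was not counted for these tools.

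The direction of the differences was mixed, with 15 members higher and 20 lower in HSD-F1 heads, where 49.4% of all genes tested were higher. Scaling by library size alone, in place of TMM scaling (the trimmed mean of M values, which sets libraries to a common level over most genes), moved this split to 9 higher of 35. With TMM scaling the median log2 fold change of HSD-F1 over ND was -0.04 for the members and -0.0026 for all genes tested. With scaling by library size alone it was -0.030 for all genes tested, and their share that was higher was not counted. The 95% interval of the fold change lay within 1.5-fold in both directions for 30 of the 35 members, and it included 0 for 32. The 5 whose intervals reached beyond 1.5-fold were Rh6, trpl, Trpgamma, Gprk1 and ninaD. In bulk RNA of whole heads, fewer photoreceptors and less RNA per photoreceptor cannot be told apart.

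**Figure D1:**
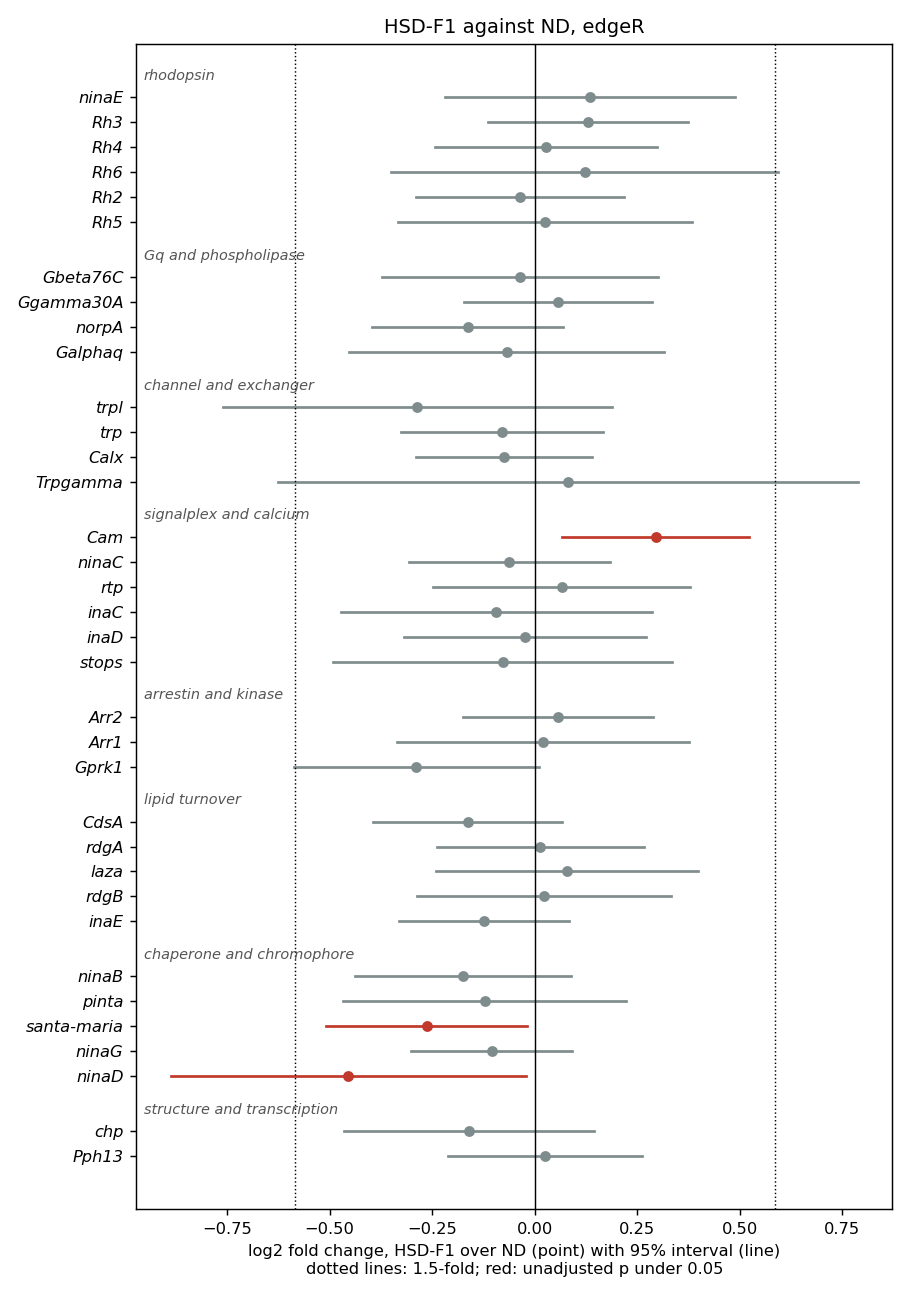
Log2 fold change of HSD-F1 over ND (points, horizontal axis) with its 95% interval (lines) for the 35 members tested, grouped by role and, within a role, ordered by level per length. Dotted lines mark 1.5-fold and red marks an unadjusted p under 0.05 in edgeR. Only Cam, santa-maria and ninaD are red, and no point reaches a dotted line.

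The members spanned a wide range of levels, which were compared per kilobase of exon length. ninaE (Dmel_CG4550), which encodes the main rhodopsin (Rh1) of the outer photoreceptors, was the highest, at 15942 ± 3156 CPM per kilobase in HSD-F1 heads and 14511 ± 659 in ND heads (SD, n = 3 each). It alone took between 1.96% and 2.85% of all counts in HSD-F1 libraries and between 2.18% and 2.48% in ND libraries, and ranked between 2 and 4 among all genes of a library by counts. Arr2, the major arrestin of the fly eye, followed at 4422 ± 87.1 CPM per kilobase in HSD-F1 heads and 4252 ± 290.1 in ND heads. Arr1 was next, at 1986 ± 409 and 1959 ± 90.0 CPM per kilobase in HSD-F1 and ND heads. These 3 genes did not overlap with one another in any library.

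Below them the levels lay closer together. Cam had 869.98 ± 51.4 CPM per kilobase in HSD-F1 heads and 709 ± 18.6 in ND heads, and Gbeta76C, ninaC, trpl, Rh3, rtp and trp followed, with means between 434 and 567 in HSD-F1 heads and between 442 and 582 in ND heads. The order of these 6 neighbours was not settled, since the values of each overlapped with those of another. At the lower end, ninaD stood at 3.03 ± 0.556 CPM per kilobase in HSD-F1 heads and 4.16 ± 0.788 in ND heads, and Trpgamma at 0.314 ± 0.135 and 0.299 ± 0.0322 in HSD-F1 and ND heads. Trpgamma, which encodes a further TRP channel subunit, rested on 24 to 65 counts in HSD-F1 libraries and 35 to 45 in ND libraries.

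**Figure D2:**
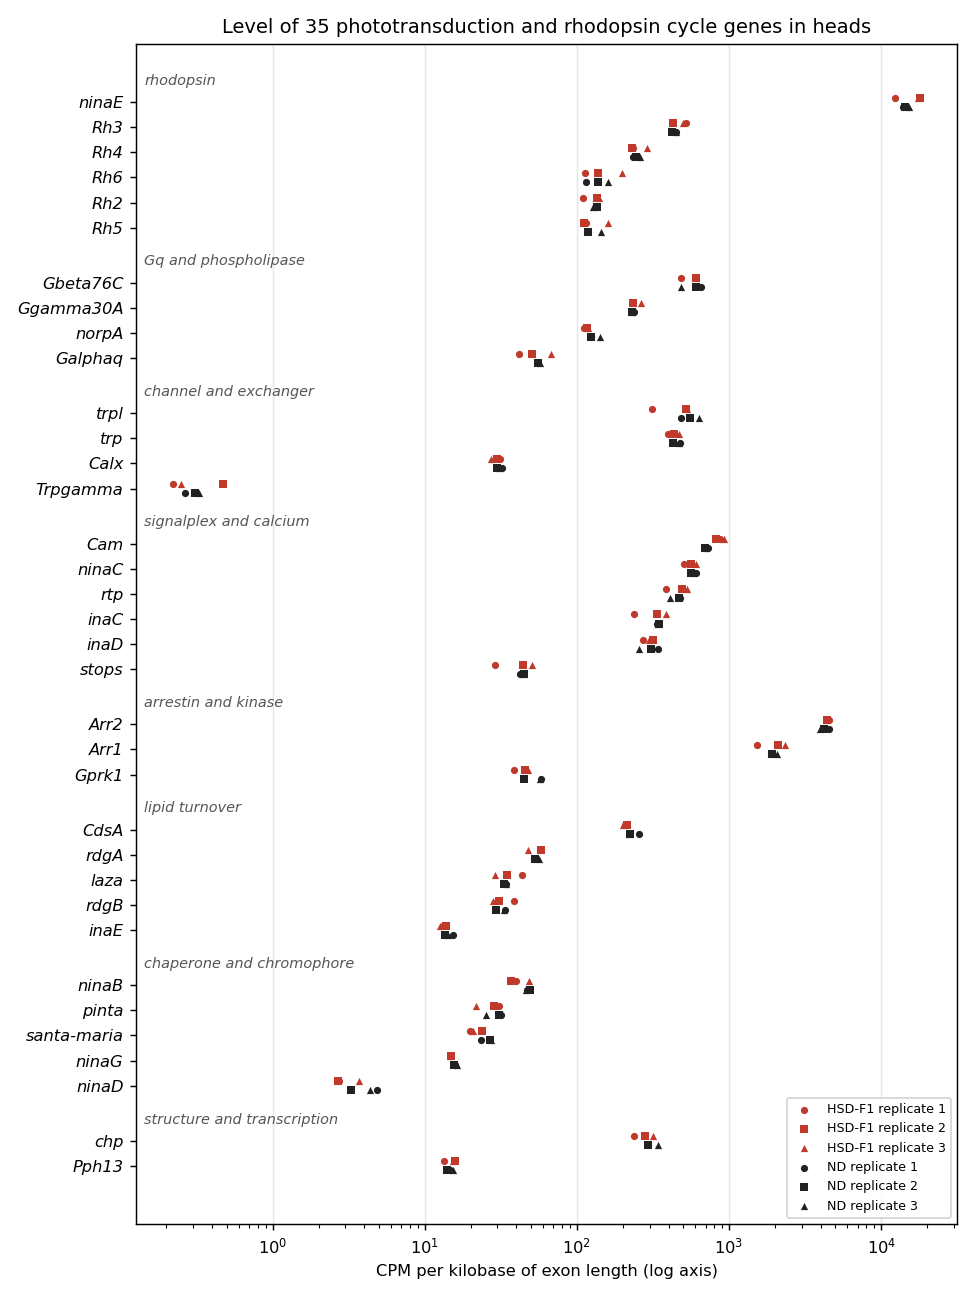
Level of each of the 35 members tested in each library, as CPM per kilobase of exon length on a log axis, for HSD-F1 (red, upper row of each gene) and ND (black, lower row). Circles, squares and triangles are replicates 1, 2 and 3. Levels run from 0.223 for Trpgamma to 18027 for ninaE, and for most genes the red and black points lie over each other.

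Among the rhodopsins, ninaE had 19549, 28628 and 27770.3 CPM in HSD-F1 replicates 1, 2 and 3, against 22131, 22814 and 24185 CPM in ND. HSD-F1 replicate 1 was the lowest of the 6 libraries and the other HSD-F1 libraries were the highest, so that no separation was seen. Its log2 fold change was 0.14 ± 0.15 (SE; edgeR adjusted p = 0.961). Without HSD-F1 replicate 1 it was 0.29, and its unadjusted p was then under 0.05. Leaving out the lowest library, which was an HSD-F1 library, was bound to raise this value.

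The minor rhodopsins serve the ocelli (Rh2) and the inner photoreceptors, where Rh3 and Rh5 are paired in pale ommatidia and Rh4 and Rh6 in yellow ones. Rh3 (Dmel_CG10888), an ultraviolet opsin, had 725, 599 and 692 CPM in HSD-F1 heads, against 627, 590.2 and 626 in ND heads. Rh4 (Dmel_CG9668), the other ultraviolet opsin, had 317, 309 and 391.7 CPM in HSD-F1 heads, against 315, 332 and 351 in ND heads. The values of both genes overlapped between the groups, with log2 fold changes of 0.13 ± 0.11 for Rh3 and 0.03 ± 0.12 for Rh4 (SE).

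Rh5 (Dmel_CG5279), the blue opsin, had 180.1, 175 and 251 CPM in HSD-F1 heads, against 184, 187 and 225 in ND heads. Rh6 (Dmel_CG5192), the green opsin, had 159.6, 194 and 276 CPM in HSD-F1 heads, against 160.15, 193 and 226 in ND heads. In both groups replicate 3 was the highest library for these genes. Their log2 fold changes were 0.03 ± 0.16 and 0.12 ± 0.21 (SE). Rh2 (Dmel_CG16740) had 149.8, 186 and 191 CPM in HSD-F1 heads, against 181, 184 and 175 in ND heads, with a log2 fold change of -0.04 ± 0.11 (SE). The unadjusted p of the 5 minor rhodopsins lay between 0.257 and 0.875 in edgeR.

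The rhodopsins were also set against each other within a library, where scaling plays no part. ninaE made up 93.2 ± 1.34% of the rhodopsin signal per kilobase in HSD-F1 heads and 93.1 ± 0.0637% in ND heads (SD, n = 3 each). The shares of Rh3, Rh4, Rh5 and Rh6 were more scattered in HSD-F1 heads, and that of Rh2 was not (SD of 0.0536% in HSD-F1 and 0.0563% in ND). Rh3 was at 3.89%, 2.26% and 2.65% in HSD-F1 replicates 1, 2 and 3, against 3.01%, 2.75% and 2.75% in ND. The share of Rh6 was 0.846%, 0.724% and 1.05% in HSD-F1 heads, against 0.760%, 0.888% and 0.982% in ND heads. The ratio of Rh3 to Rh4 was 1.94 ± 0.257 in HSD-F1 heads and 1.79 ± 0.118 in ND heads, and that of Rh5 to Rh6 was 0.877 ± 0.115 and 0.928 ± 0.086 in HSD-F1 and ND heads. Neither ratio differed beyond the spread between libraries (two-sided exact permutation p = 0.7 and 0.5), nor did the ratios of trp to trpl (0.998 ± 0.241 in HSD-F1 and 0.839 ± 0.139 in ND, exact p = 0.5) and of Arr1 to Arr2 (0.450 ± 0.101 in HSD-F1 and 0.463 ± 0.052 in ND, exact p = 0.9). All 4 had an adjusted p of 0.9 over these 4 tests. With 3 libraries against 3 the smallest p this test allows is 0.1, so it could not have reached 0.05. HSD-F1 replicate 1 set much of these differences, since the log2 difference of HSD-F1 minus ND was 0.24 for trp/trpl and 0.10 for Rh3/Rh4 with all libraries, and 0.05 and 0.0020 without it.

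**Figure D3:**
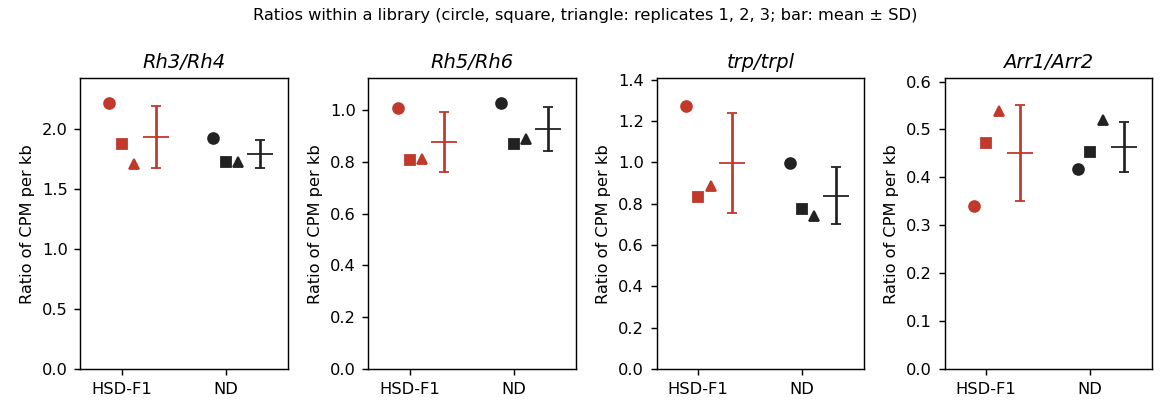
Ratios of CPM per kilobase of paired genes within each library, in HSD-F1 (red, left) and ND (black, right), for Rh3 over Rh4, Rh5 over Rh6, trp over trpl and Arr1 over Arr2. Symbols are single libraries and bars the mean ± SD of 3. The groups overlap in every panel, and the exact permutation p runs from 0.5 for Rh5/Rh6 and trp/trpl to 0.9 for Arr1/Arr2.

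Downstream of the rhodopsins, the Gq protein is built from Galphaq, Gbeta76C and Ggamma30A. Gbeta76C had 709.7, 891 and 893 CPM in HSD-F1 heads, against 965, 883 and 708 in ND heads, and these values overlapped. The log2 fold changes of Galphaq, Gbeta76C and Ggamma30A were -0.07, -0.04 and 0.06, with unadjusted p between 0.587 and 0.813 in edgeR. Without HSD-F1 replicate 3 the value of Galphaq was -0.28, and its unadjusted p was under 0.05. HSD-F1 replicate 3 was the highest library for Galphaq, so leaving it out was bound to lower this value. Galphaq was read at 53.4 ± 13.4 CPM per kilobase in HSD-F1 heads and 56.0 ± 1.28 in ND heads, far below its partners. Of its exon bases, 44.1% are shared with CG45086 on the same strand, a gene listed with 0 counts. Over all 6 libraries, the level of Galphaq was 54.7 CPM per kilobase of its whole exon length, and 97.9 per kilobase of the bases that no other gene shares.

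norpA, the phospholipase C of phototransduction (Dmel_CG3620; X, 4322626 to 4365408 in Release 6 of the genome, plus strand), had 928, 971 and 983 CPM in HSD-F1 heads, against 1028, 1021 and 1178 in ND heads. Every HSD-F1 library was below every ND library, with a log2 fold change of -0.16 ± 0.10 (SE; edgeR p = 0.146, adjusted p = 0.911; exact permutation p = 0.1). Of the members, 4 had groups that did not overlap, 1 higher and 3 lower in HSD-F1 heads, where 11.8% of all genes tested did not overlap (6.67% higher and 5.17% lower).

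Of the light-activated channels, trp had 1646, 1812 and 1947 CPM in HSD-F1 heads, against 1989, 1784 and 1938 in ND heads, and its log2 fold change was -0.08 ± 0.11 (SE; edgeR adjusted p = 0.966). trpl had 1212, 2042 and 2059 CPM in HSD-F1 heads, against 1868, 2156 and 2452 in ND heads. HSD-F1 replicate 1 was far below the other 5 libraries for trpl, and the groups overlapped. Its log2 fold change was -0.29 ± 0.21 (SE; edgeR adjusted p = 0.931), and -0.07 without HSD-F1 replicate 1. Calx, the sodium-calcium exchanger that clears calcium after a response, had a log2 fold change of -0.07 (edgeR adjusted p = 0.964), and Trpgamma one of 0.08 (adjusted p = 0.987).

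TRP, the phospholipase and protein kinase C are held together by the scaffold protein INAD. The scaffold gene inaD, the protein kinase C gene inaC, the myosin III gene ninaC, rtp (which encodes the partner that anchors the NINAC protein) and stops (whose product maintains the NORPA protein) had log2 fold changes between -0.09 and 0.07, and all 5 overlapped between the groups. ninaC had 2733, 3059 and 3285 CPM in HSD-F1 heads, against 3265, 3059 and 3149 in ND heads. rtp had 371, 474 and 511 CPM in HSD-F1 heads, against 455, 449 and 392.4 in ND heads, and 20.5% of its exon bases are shared with Mms19. inaC and stops were more scattered in HSD-F1 heads, with 557, 793 and 899.9 CPM for inaC, against 792, 809 and 801 in ND heads. In both genes HSD-F1 replicate 1 was the lowest library and HSD-F1 replicate 3 the highest.

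Cam was the one member with an unadjusted p under 0.05 that was higher in HSD-F1 heads, which 2.91% of all genes tested were. This gene (Dmel_CG8472) lies on 2R, 12259398 to 12278809, on the plus strand. Calmodulin binds calcium and adjusts TRP channels, the NINAC protein and many other targets, in and out of the eye. Cam had 5081, 4746 and 5342 CPM in HSD-F1 heads, against 4239, 4027 and 4097 CPM in ND heads. All 3 HSD-F1 libraries were above all 3 ND libraries. The log2 fold change was 0.30 ± 0.10 (SE; edgeR p = 0.0169, adjusted p = 0.911; exact permutation p = 0.1), with a 95% interval between 4.82% and 43.6% higher. In 15 of 17 other settings of the analysis its unadjusted p stayed under 0.05, and the exceptions left out ND replicate 2 (log2 fold change 0.28) or replicate 3 of both groups (0.25).

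Cam is not an eye-specific gene. The 9 neuron markers examined were 6 higher and 3 lower in HSD-F1 heads, where 49.4% of all genes tested were higher. No marker had 0 counts in every library. They summed to between 5099 and 5800 CPM in HSD-F1 heads and between 4844 and 4913 CPM in ND heads, without overlap. The markers did not move together. Syt1, Syn, brp and elav had log2 fold changes of -0.04, -0.02, -0.0055 and 0.03, and nSyb, cac and Sh of 0.12, 0.15 and 0.23. In 4 of the 9 the groups did not overlap, each higher in HSD-F1 heads, as in 6.67% of all genes tested. Of the 9 markers, the sodium channel gene para and the RNA-binding protein gene fne had an unadjusted p under 0.05 in edgeR (adjusted p = 0.911 for both). Each had a log2 fold change of 0.34, where 2.91% of all genes tested were higher with such a p. The part of neuron number or neuronal RNA in the Cam value was not tested.

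Arrestins bind activated rhodopsin and end its signal, and a receptor kinase phosphorylates it. Arr1 had 3801, 5179.98 and 5773 CPM in HSD-F1 heads, against 4694, 4752 and 5106 in ND heads. Arr2 had 6971, 6848 and 6702 CPM in HSD-F1 heads, against 7040.04, 6548 and 6144 in ND heads. Both overlapped between the groups, with log2 fold changes of 0.02 ± 0.16 and 0.06 ± 0.10 (SE; edgeR adjusted p = 0.992 and 0.975). Gprk1, the receptor kinase gene, had 96.9, 114.7 and 120.2 CPM in HSD-F1 heads, against 147, 113 and 145 in ND heads. Its log2 fold change was -0.29 ± 0.13 (SE; edgeR p = 0.0573, adjusted p = 0.911; exact permutation p = 0.3), and ND replicate 2 lay within the range of HSD-F1. Leaving out ND replicate 2 or HSD-F1 replicate 3, the lowest ND and the highest HSD-F1 library, was bound to widen this difference. The log2 fold change of Gprk1 was then -0.40 and -0.35, each with an unadjusted p under 0.05. With all libraries kept, Gprk1 also had such a p under DESeq2, where it was the added member, and in 3 other settings of edgeR, which makes 6 of 17 settings.

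Lipid turnover returns the products of phospholipase C to the membrane. The diacylglycerol kinase gene rdgA, the phosphatidylinositol transfer protein gene rdgB, the lipid phosphatase gene laza and the diacylglycerol lipase gene inaE had log2 fold changes of 0.01, 0.02, 0.08 and -0.12, and none had an unadjusted p under 0.05 in edgeR. laza had 100.8, 80.4 and 67.4 CPM in HSD-F1 heads, against 79.3, 77.3 and 78.6 in ND heads. For laza and rdgB, HSD-F1 replicate 1 was the highest library and HSD-F1 replicate 3 the lowest, the opposite order to that of inaC, stops and Galphaq.

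CdsA encodes the CDP-diacylglycerol synthase, which makes the precursor of phosphatidylinositol (Dmel_CG7962; 3L, 8127762 to 8131675, plus strand). It had 540.1, 558 and 526 CPM in HSD-F1 heads, against 665, 580.1 and 575 in ND heads. The groups did not overlap, with HSD-F1 replicate 2 just under the lowest ND library, and the log2 fold change was -0.16 ± 0.10 (SE; edgeR p = 0.142, adjusted p = 0.911; exact permutation p = 0.1).

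The genes of chromophore supply were the one group of roles in which all tested members were lower in HSD-F1 heads. The 5 members had log2 fold changes between -0.45 and -0.10 and a median of -0.17. Of the 5, 2 were lower with an unadjusted p under 0.05 in edgeR, as were 2.16% of all genes tested. All 5 were lower in 17 of 18 settings of the analysis, the main one included. The exception was pinta, whose product binds retinoids in pigment cells, with a log2 fold change of 0.01 without HSD-F1 replicate 3. This group was small and was noticed after its values were seen, and no test of the group as a whole was made.

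santa-maria encodes a scavenger receptor that takes up carotenoids in neurons and glia outside the retina. It (Dmel_CG12789) lies on 2L, 7445355 to 7451244, on the minus strand, and 9.49% of its exon bases are shared with another gene. It had 109.8, 132 and 115.1 CPM in HSD-F1 heads, against 129, 148 and 151 CPM in ND heads. ND replicate 1 lay just below HSD-F1 replicate 2, and the other libraries were separated by group. santa-maria had a log2 fold change of -0.26 ± 0.11 (SE; edgeR p = 0.0379, adjusted p = 0.911; exact permutation p = 0.2).

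ninaD (Dmel_CG31783) encodes a class B scavenger receptor that absorbs carotenoids, mainly in the gut. It had 4.88, 4.80 and 6.56 CPM in HSD-F1 heads, against 8.65, 5.89 and 7.75 CPM in ND heads, from 99 to 167 counts per HSD-F1 library and 155 to 216 per ND library. HSD-F1 replicate 3 lay above ND replicate 2, so their ranges overlapped. This gave a log2 fold change of -0.45 ± 0.19 (SE; edgeR p = 0.0420, adjusted p = 0.911; exact permutation p = 0.2). Leaving out HSD-F1 replicate 3 or ND replicate 2 took ninaD past 1.5-fold, with log2 fold changes of -0.62 and -0.60. These were the highest HSD-F1 and the lowest ND library, so leaving out either was bound to widen the difference. Both receptor genes had an unadjusted p under 0.05 in 11 of 17 other settings, and neither did with the level of eggshell and oocyte genes as a covariate, where the log2 fold changes were nearly as large, at -0.43 for ninaD and -0.25 for santa-maria. Leaving out single libraries kept this p for ninaD only without HSD-F1 replicate 3 or ND replicate 2 (log2 fold changes between -0.62 and -0.33 over the 6 libraries left out). For santa-maria it was kept only without HSD-F1 replicate 2 or ND replicate 1 (between -0.35 and -0.21), again the highest HSD-F1 and the lowest ND library.

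ninaD starts 320 bases beyond the end of Arr1 on the same strand of 2L (Arr1 at 18078269 to 18081307, ninaD at 18081628 to 18083608). Arr1 averaged 4918 ± 1012 CPM in HSD-F1 heads and 4851 ± 223 CPM in ND heads, and ninaD 5.41 ± 0.995 and 7.43 ± 1.41 CPM in HSD-F1 and ND heads (SD, n = 3 each). The log2 fold change of Arr1 was 0.02, with a 95% interval of -0.34 to 0.38, and that of ninaD was -0.45, with an interval of -0.89 to -0.02. The difference between these neighbours was not tested. The share of ninaD counts that came from reads running past the end of Arr1 was not tested.

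The remaining genes of chromophore supply were closer to no difference. ninaB, the oxygenase that cleaves carotenoids into retinal, had 86.5, 79.5 and 105 CPM in HSD-F1 heads, against 101, 106 and 99.7 in ND heads, with a log2 fold change of -0.17 ± 0.11 (SE; edgeR adjusted p = 0.917). Without HSD-F1 replicate 3 it was -0.30 and its unadjusted p was under 0.05. That was the highest HSD-F1 library for ninaB, so leaving it out was bound to widen the difference. ninaG (Dmel_CG6728), an oxidoreductase needed to form the fly chromophore, lies on 3R, 11419376 to 11421693, on the minus strand. It had 28.6, 28.8 and 28.1 CPM in HSD-F1 heads, against 30.5, 30.1 and 31.4 in ND heads. These groups did not overlap, with a log2 fold change of -0.10 ± 0.09 (SE; edgeR p = 0.256, adjusted p = 0.942; exact permutation p = 0.1). The spread of ninaG was 1.16% of the mean in HSD-F1 heads and 2.15% in ND heads, the smallest of the members in HSD-F1 heads. pinta had 40.9, 38.5 and 29.0 CPM in HSD-F1 heads, against 42.6, 41.3 and 34.0 in ND heads, and replicate 3 was the lowest library of both groups.

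**Figure D4:**
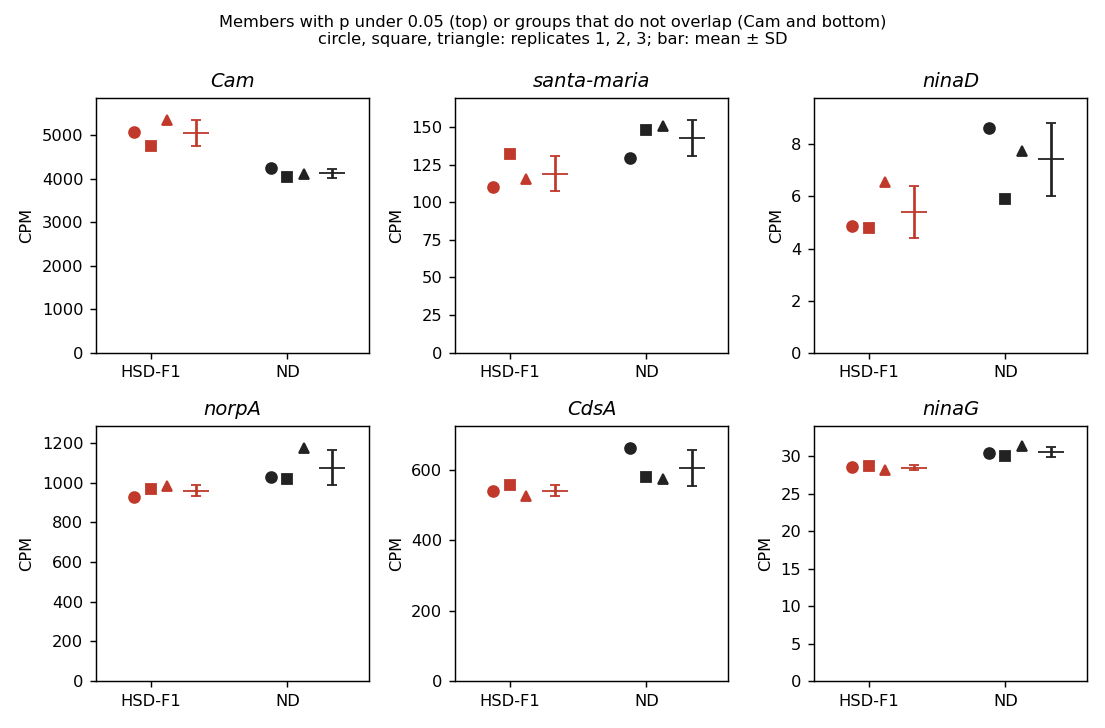
CPM in each library for the 3 members with an unadjusted p under 0.05 in edgeR (Cam, santa-maria and ninaD, top) and the other 3 whose groups do not overlap (norpA, CdsA and ninaG, bottom), in HSD-F1 (red, left) and ND (black, right). Symbols are single libraries and bars the mean ± SD of 3. Cam is higher in HSD-F1 heads and the other 5 are lower, with overlapping libraries in santa-maria and ninaD.

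ninaA (Dmel_CG3966), the cyclophilin chaperone that Rh1 needs to leave the endoplasmic reticulum, was listed at 0 counts in all 6 libraries and could not be tested. It lies on 2L, 877302 to 878270, on the plus strand, and all 871 of its exon bases are shared with CG15824 on the opposite strand, a gene with 114 counts over the 6 libraries. The overlap covers the coding sequence and both untranslated ends of ninaA and lies in the 3' untranslated region of CG15824. Of 386 protein-coding genes whose exon bases are all shared with another gene, 385 (99.7%) were listed at 0 counts in every library, against 3.50% of 4196 genes that share some bases and 7.62% of 9342 that share none. How the counting treated reads on shared bases is not given in the sources used here. By counting error alone a 0 allows up to 3 counts in a library, but the 0 of ninaA is not a measure of its expression. XPORT-A, a TRP and rhodopsin chaperone gene outside the 36, is shared over 100% of its exon bases and was likewise listed at 0.

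The 2 members outside the cascade were chp and Pph13. chp encodes chaoptin, the adhesion protein that joins the microvilli of the rhabdomere, and had 1147, 1356.5 and 1549 CPM in HSD-F1 heads, against 1437, 1438 and 1656 in ND heads, with a log2 fold change of -0.16 ± 0.13 (SE; edgeR adjusted p = 0.942). Pph13 encodes a homeodomain protein that acts at rhodopsin promoters, and ranged between 25.1 and 29.9 CPM in HSD-F1 heads and between 26.1 and 28.8 CPM in ND heads, with a log2 fold change of 0.03 (edgeR adjusted p = 0.987).

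The spread between libraries was wider in HSD-F1 heads. The median SD of log2 CPM over the members was 0.190 in HSD-F1 heads and 0.0818 in ND heads, and 26 of 35 members (74.3%) were more variable in HSD-F1. Of all genes tested, 66.3% were more variable in HSD-F1, with medians of 0.168 and 0.113 in HSD-F1 and ND heads. Among genes with a mean of at least 10 CPM it was 75.8% of 33 members, against 74.0% of 6929 genes. HSD-F1 replicate 1 held the lowest value of 17 of the 35 members, whereas it held the lowest value of 23.9% of all genes. It was below the mean of the 6 libraries for 27 members, with the largest shortfall in trpl. The same library had the fewest counts and the highest sum of neuron markers (5800 CPM), and ranked first in the sum of fat body markers (84698 CPM, against 66796 to 67238 in the other HSD-F1 libraries and 67430 to 82919 in ND libraries, of which ND replicate 1 was the highest and held the lowest value of no member). The part of these values in its low photoreceptor transcripts was not tested.

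**Figure D5:**
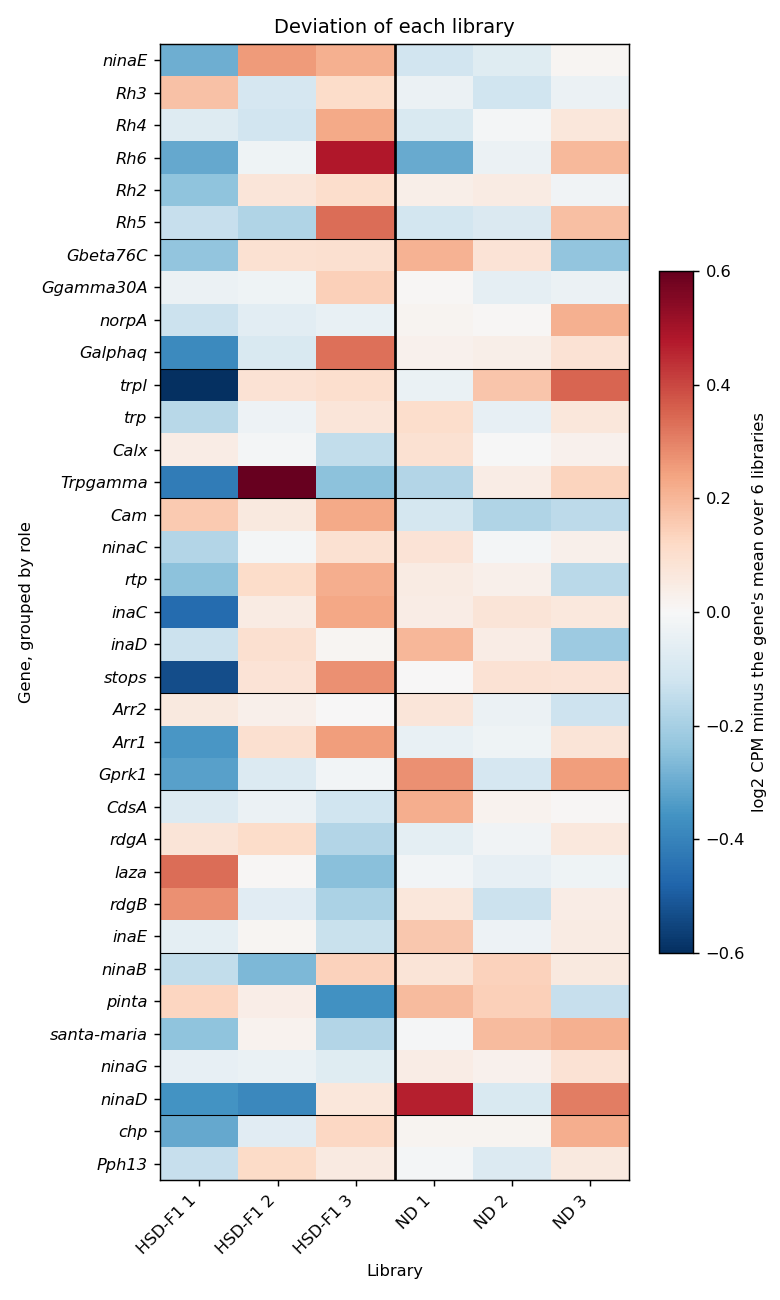
Deviation of each library (columns, HSD-F1 left and ND right of the black line) from the mean of the 6 libraries of each gene, in log2 CPM, for the 35 members tested (rows, grouped by role). HSD-F1 replicate 1 is below the mean in 27 of 35 genes, and HSD-F1 replicate 3 is above it in 23. Cam is the one gene in which all 3 HSD-F1 libraries are above and all 3 ND libraries below, and norpA, CdsA and ninaG show the reverse.

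Without HSD-F1 replicate 1, 19 of 35 members were higher in HSD-F1 heads and the median log2 fold change was 0.03. ND replicate 1, in contrast, held the lowest value of none of the members and the highest of 10, where it held the lowest value of 13.5% and the highest of 14.4% of all genes, and without it 12 members were higher.

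A further 21 genes outside the 36, of the cascade or of processes tied to it, were examined, and 20 could be tested. The list was not limited to genes specific to the eye, such that its values are not those of the cascade alone. Of the 20 tested, 3 were higher and 17 lower in HSD-F1 heads, where 49.4% of all genes tested were higher. XPORT-B, one of those lower, rested on 13 counts over the 6 libraries, and 92.2% of its exon bases are shared. The list had a median log2 fold change of -0.13, and 4 of its genes had an unadjusted p under 0.05 in edgeR, all lower, with adjusted p = 0.911, where 2.16% of all genes tested were lower with such a p. These were Pld, the phospholipase D gene (-0.33), PIP4K, a phosphoinositide kinase gene (-0.29), Rdhb, a retinol dehydrogenase gene of the pigment cells (-0.38), and CaMKII, the calmodulin-dependent kinase gene (-0.27). Rdhb averaged 181 ± 11.5 CPM in HSD-F1 heads and 235 ± 44.4 CPM in ND heads, and CaMKII 423 ± 8.48 and 510.2 ± 39.8 CPM in HSD-F1 and ND heads (SD, n = 3 each). Pdh, the photoreceptor dehydrogenase gene of the same retinoid pathway as Rdhb, was the most abundant of the list at 1426 CPM per kilobase over the 6 libraries. Summed over the list, HSD-F1 heads had between 4592 and 4662 CPM and ND heads between 4724 and 5438 CPM.

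Of the 8 tested genes that make, load or clear histamine, the photoreceptor transmitter, or receive its signal, 3 were higher and 5 lower in HSD-F1 heads, and none had an unadjusted p under 0.05 in edgeR. Their summed level was between 771 and 963 CPM in HSD-F1 heads and between 827 and 1039 CPM in ND heads.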

How the data were processed

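Poly(A) RNA of heads was sequenced as paired-end reads. The authors aligned them, kept uniquely mapped reads and deposited 1 table of raw counts per gene for each library. The submitters' processing notes name HISAT2 2.0.4, Bowtie2 2.2.5, RSEM 1.2.12 and DESeq2 1.4.5. The study's methods describe FPKM, but the deposited values were counts. The notes name these tools without their roles, and RSEM gives estimated counts whereas these were whole numbers, so which program made the tables, and whether it used strand, is not given in the sources used here, and reads on genes that share bases cannot be assigned. RefSeq Release 6 gave a symbol for 17504 of 17545 locus tags.

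The 12048 genes with 10 or more counts summed over all 6 libraries were tested with the quasi-likelihood test of edgeR 4.0.16 in R 4.3.3, with TMM scaling, group as the only term and Benjamini-Hochberg adjustment over all genes. CPM used the same scaling, and levels between genes were divided by the exon length given in the tables. Single values were compared by exact permutation over 20 assignments of libraries. Intervals cover the spread between these libraries, and the labels do not say whether the pools came from separate cultures. Alternatives were other scalings and filters, DESeq2 1.42.0, limma-voom (limma 3.58.1), robust dispersion, the replicate number as a block, an eggshell and oocyte covariate, and leaving out libraries. All 36 members are named. Values per library are given for members with an unadjusted p under 0.05 or without overlap, the rhodopsins, the 10 most abundant members per length, and some others chosen after their values were seen. The members and lists were chosen with earlier results of these data known. A planned search for promoter motifs was not run, as no genome sequence was used here.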

Additional observations from a re-analysis of the deposited data

How the results depend on the processing

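No alternative gave any member an adjusted p under 0.05. The number of members with an unadjusted p under 0.05 was 1 with the eggshell and oocyte covariate (log2 fold changes of -0.43 for ninaD and -0.25 for santa-maria, against -0.45 and -0.26 without it) and between 1 and 5 when single libraries were left out (Cam alone without ND replicate 3, 5 without HSD-F1 replicate 3, namely Cam, Galphaq, Gprk1, ninaB and ninaD), and with a 1.5-fold threshold between 0 and 1 (ninaD). The share of all genes with an unadjusted p under 0.05 was not counted in these settings. Members higher in HSD-F1 heads numbered 9 with scaling by library size alone, where the median log2 fold change of all genes tested was -0.030. They numbered between 10 and 19 without single libraries, over which the median of the members ranged between -0.10 and 0.03. Over the same settings the median of all genes tested ranged between -0.0065 and 0.0019. Leaving out single libraries, the log2 difference of HSD-F1 minus ND in the Arr1/Arr2 ratio ranged between -0.20 and 0.13 (main value -0.06). That of trp/trpl ranged between 0.05 and 0.37 (main value 0.24), of Rh3/Rh4 between 0.0020 and 0.19 (0.10) and of Rh5/Rh6 between -0.19 and -0.01 (-0.09).

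With the replicate number as a block, 4 members had an unadjusted p under 0.05, trpl being added (log2 fold change -0.32). The share of all genes with such a p was not counted there either. Deviations of same-numbered libraries correlated by 0.245, 0.00838 and 0.279 for replicates 1, 2 and 3, against -0.301 to 0.0704 for differently numbered libraries. Replicates 1 and 3 of each group correlated best with their own number, and replicate 2 of neither group did. What same-numbered libraries share beyond the number was not tested.

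Sign changes fell on members whose main log2 fold change was within 0.1 of 0, and on Rh6 and pinta when single libraries were left out. With scaling by library size alone the log2 fold changes were -0.0019 for Rh4, -0.0065 for Rh5, -0.011 for Arr1, -0.013 for rdgA, -0.0022 for rdgB and -0.0021 for Pph13. With replicates 1 and 2 only they were -0.045 for Rh4, -0.059 for Rh5, -0.0055 for Ggamma30A, -0.10 for rtp and -0.072 for Arr1. Arr1 was -0.0033 under limma-voom and -0.00075 under the block. Without single libraries the range of the log2 fold change crossed 0 for 19 members, Rh2 (-0.098 to 0.067), Rh4 (-0.087 to 0.0895), Rh5 (-0.16 to 0.12), Rh6 (-0.13 to 0.28), Galphaq (-0.28 to 0.084), Gbeta76C (-0.15 to 0.066), Ggamma30A (-0.0033 to 0.088), Trpgamma (-0.33 to 0.27), inaC (-0.25 to 0.081), inaD (-0.13 to 0.075), ninaC (-0.12 to 0.0066), rtp (-0.032 to 0.19), stops (-0.25 to 0.12), Arr1 (-0.11 to 0.18), rdgA (-0.0396 to 0.099), rdgB (-0.12 to 0.12), laza (-0.086 to 0.21), pinta (-0.22 to 0.014) and Pph13 (-0.028 to 0.096).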

Other observations

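Other eye genes, which stand outside the cascade, gave no adjusted p under 0.05 in edgeR. Of all genes tested, 49.4% were higher in HSD-F1 heads and 5.07% had an unadjusted p under 0.05 in edgeR. Of 9 genes of rhabdomere and retina structure, 3 were higher and 6 lower in HSD-F1 heads (median log2 fold change -0.02). kirre, an adhesion molecule of the immunoglobulin family, was the one with an unadjusted p under 0.05 in edgeR, at 67.3 ± 5.76 CPM in HSD-F1 heads and 56.5 ± 0.864 CPM in ND heads (SD, n = 3 each; adjusted p = 0.911). Of 17 eye transcription factor genes, 8 were higher and 9 lower and none had such a p, with a median log2 fold change of -0.0052. Of 19 tested genes of eye pigment and lens, 4 were higher and 15 lower, with a median of -0.08. Among them bw, the ABC transporter gene of the red pigments, had 26.4 ± 3.15 CPM in HSD-F1 heads and 34.4 ± 5.25 CPM in ND heads (SD, n = 3 each), with an unadjusted p under 0.05 and an adjusted p of 0.911 in edgeR.

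The marker lists of other cells in the head gave no adjusted p under 0.05 in edgeR. Glia markers were 4 higher and 2 lower in HSD-F1 heads, muscle markers 3 higher and 4 lower, and fat body markers 0 higher and 7 lower. Eggshell and oocyte genes were 3 higher and 15 lower, where 49.4% of all genes tested were higher. They summed to 122 CPM in ND replicate 3, against 11.9 to 32.1 CPM in the other libraries. None of the genes in these lists had an unadjusted p under 0.05. Of 6 male-specific genes 2 passed the count filter, both lower, again without such a p.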
